A study of Mus musculus with 12 samples.

Results

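Vsig8 and Myh15 were the genes examined here, 2 of the 19547 genes in the deposited table and 2 of the 18551 that passed a filter on low counts. They were picked by symbol because an earlier look at these libraries had placed both among the genes most clearly higher in fat grafts supplemented with ASC, commonly read as adipose-derived stromal or stem cells. Their levels across the groups are therefore given as a description, with no test. Where a fit over all genes called either of them, the call is not independent of the choice. The mice were wild type, of the C57BL/6 strain and 16 weeks old, and the fat grafts were taken for RNA after 8 weeks. The 3 groups held 4 libraries each: CAL + DLL4 inhibition (grafts with ASC and with inhibition of DLL4, a Notch ligand of endothelial tip cells), CAL (grafts with ASC, for cell-assisted lipotransfer) and Control (fat grafts labelled as controls, with neither named). The labels name no inhibitor or dose, give no count of ASC and do not say whether each library came from its own animal, so spreads below are those between libraries and may be technical.

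Vsig8 encodes a membrane protein with V-set and immunoglobulin domains. It is known from the cornifying cells of hair and nail, and has been described as a binding partner of the immune checkpoint receptor VISTA. Myh15 encodes a myosin heavy chain of the sarcomeric family, the motor subunit of thick filaments, and is known from extraocular muscle. Adipose-derived stromal cells are added to fat grafts because they can give rise to adipocytes and support new vessels, and Notch signalling through DLL4 restrains vessel sprouting.

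Vsig8 (gene 240916) lay on chromosome 1, plus strand, at 172555938 to 172563717 of GRCm38.p6, a span of 7.78 kb with 8 exon blocks in the GENCODE annotation of the same build. Myh15 (gene 667772) lay on chromosome 16, plus strand, at 49057400 to 49199563, a span of 142 kb with 41 exons. The 250 bases before each start are shown to let the promoters be compared, since both genes differed in the same direction between groups. The sequences are RefSeq's, for GRCm38.p6, plus strand, chr1:172555688-172555937 for Vsig8 and chr16:49057150-49057399 for Myh15. Capitals mark the letters that matched a searched motif.
Vsig8: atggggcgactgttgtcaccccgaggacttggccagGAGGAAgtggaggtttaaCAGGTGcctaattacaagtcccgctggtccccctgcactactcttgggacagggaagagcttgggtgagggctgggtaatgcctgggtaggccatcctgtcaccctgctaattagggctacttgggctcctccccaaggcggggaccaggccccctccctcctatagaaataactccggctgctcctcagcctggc
Myh15: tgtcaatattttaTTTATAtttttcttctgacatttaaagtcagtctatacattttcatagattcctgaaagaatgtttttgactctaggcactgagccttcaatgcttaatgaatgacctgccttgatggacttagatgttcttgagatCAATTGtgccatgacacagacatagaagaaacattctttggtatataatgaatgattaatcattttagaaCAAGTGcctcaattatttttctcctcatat
The 2 windows differed in base composition. G and C made up 60.0% of the Vsig8 window, at percentile 72.1 of 32851 RefSeq windows of that length, and 31.2% of the Myh15 window, at percentile 1.94. The Vsig8 window held 5 CpG dinucleotides and the Myh15 window 0. The letters were searched on both strands for 8 motifs. GAGGAA, a core bound by PU.1, stood at -214 from the Vsig8 start and in 23.3% of all windows. CANNTG, the E-box, stood at -196 before Vsig8 and at -100 and -30 before Myh15, and in 66.2% of all windows. TATAAA stood on the minus strand at -237 before Myh15 and in 12.4% of windows. Neither window held TGGGAA (RBPJ, the DNA-binding partner of Notch, in 21.6% of windows), TCACGTG (TFEB and TFE3, 3.13%), GGAATG (the MCAT element of muscle genes, 12.6%), TGANTCA (AP-1, 6.75%) or GGGCGG (the GC box, 32.7%). The E-box was the one motif found before both genes, and most windows hold it. Vsig8 has a second RefSeq start whose window is not shown.

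The libraries held 55883051 to 70804141 counts. They correlated with each other at r = 0.975 to 0.989 within groups (18 pairs) and 0.97 to 0.989 between groups (48 pairs), on log2 CPM (counts relative to TMM-scaled library size) across genes, which are not independent replicates. CAL + DLL4 inhibition replicate 3 stood closer to the CAL libraries, at 0.98 to 0.988, than to its own group, at 0.977 to 0.978. CAL replicate 3 correlated at 0.982 to 0.983 with the other CAL libraries, and at 0.981 to 0.989 with those of Control. Values without each of these libraries are given beside the fold changes that use it, the correlation of the pair and the rankings. For the neighbours and listed genes they are given in part, so a list without them may also have changed. Adipocyte markers were present throughout, with Adipoq (adiponectin) at 35.8 to 172 CPM and Plin1 (perilipin of the fat droplet) at 13.0 to 83.1 CPM over the 12 libraries. Dll4 itself had 3.98 to 4.95 CPM in CAL + DLL4 inhibition, 3.01 to 4.22 CPM in CAL and 4.97 to 6.95 CPM in Control. An inhibitor of the protein need not change its RNA, so this does not check the labels.

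Vsig8 was highest in CAL, intermediate with DLL4 inhibition and lowest in Control. Its TMM-normalised CPM in replicates 1 to 4 was 17.3, 18.3, 20.1 and 16.1 in CAL + DLL4 inhibition, 29.6, 29.7, 24.9 and 26.9 in CAL, and 14.4, 16.0, 12.5 and 12.9 in Control. All 4 CAL libraries lay above the other 8. Of all genes tested, 3.34% did not overlap between CAL + DLL4 inhibition and CAL (1.76% lower, 1.58% higher), 7.35% between CAL and Control (3.61% higher, 3.75% lower), and 4.77% between CAL + DLL4 inhibition and Control (2.41% higher, 2.35% lower). The lowest CAL + DLL4 inhibition library lay just above the highest Control library, by 0.0239 CPM. In the deposited TPM, which is scaled per transcript length, 3 of 4 CAL + DLL4 inhibition libraries lay above all Control libraries and the groups overlapped. Group means were 17.9 ± 1.70 CPM in CAL + DLL4 inhibition, 27.7 ± 2.32 CPM in CAL and 14.0 ± 1.61 CPM in Control (SD, n = 4 each). These rested on 1091 to 1271 counts per library in CAL + DLL4 inhibition, 1652 to 1766 in CAL and 832 to 999 in Control. The spread within a group was small, with a coefficient of variation of 9.50% in CAL + DLL4 inhibition, 8.37% in CAL and 11.5% in Control.

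Myh15 followed the same order at a lower level and with far more scatter between grafts of a group. Its CPM in replicates 1 to 4 was 2.04, 3.51, 4.43 and 1.81 in CAL + DLL4 inhibition, 5.39, 7.72, 5.18 and 11.3 in CAL, and 1.39, 1.56, 1.74 and 1.14 in Control. Again all 4 CAL libraries lay above the other 8, and CAL replicate 4 stood highest. The lowest CAL + DLL4 inhibition library was 0.0702 CPM above the highest Control library, and in TPM these groups overlapped with 3 of 4 above. Means were 2.95 ± 1.24 CPM in CAL + DLL4 inhibition, 7.39 ± 2.83 CPM in CAL and 1.45 ± 0.257 CPM in Control (SD, n = 4 each). Myh15 rested on 123 to 280 counts in CAL + DLL4 inhibition, 313 to 741 in CAL and 81 to 116 in Control. Its coefficient of variation was 42.2% in CAL + DLL4 inhibition, 38.3% in CAL and 17.7% in Control. In these whole-tissue samples, more cells that express a gene and more RNA per cell cannot be told apart.

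**Figure D1:**
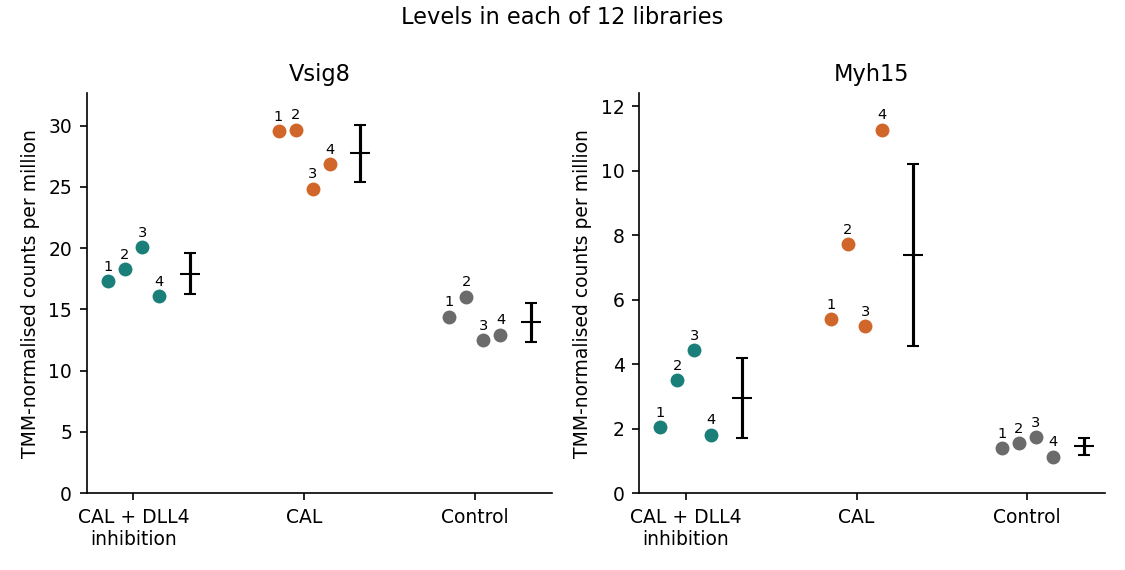
TMM-normalised CPM of Vsig8 (left panel) and Myh15 (right panel) in each of the 12 libraries by group, with replicate numbers at the points and the mean ± SD (n = 4) as a black bar beside each group. For both genes the 4 CAL libraries lie above the other 8, and CAL + DLL4 inhibition lies between CAL and Control.

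Compared per transcript length, Vsig8 was the more abundant gene in every library. Its level averaged 22.9 ± 2.54 TPM in CAL + DLL4 inhibition, 36.8 ± 3.83 TPM in CAL and 18.8 ± 2.17 TPM in Control. Myh15 averaged 0.994 ± 0.427 TPM in CAL + DLL4 inhibition, 2.58 ± 1.00 TPM in CAL and 0.513 ± 0.0926 TPM in Control (SD, n = 4 each). The ratio of Vsig8 to Myh15 TPM ran from 17.3 to 33.4 in CAL + DLL4 inhibition, 9.06 to 21.0 in CAL and 27.5 to 43.6 in Control. The ratios of CAL lay below all those of Control, with no overlap.

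As a log2 fold change ± SE from a fit over all genes, Vsig8 stood at 0.99 ± 0.10 in CAL against Control, a fold of 1.99. Of the 18551 genes tested, 0.00539% had an adjusted p under 0.05 there in edgeR's quasi-likelihood test, which was 1 gene, Vsig8. DESeq2 called 616 genes (3.32%) in the same comparison, and 2705 genes (14.6%) had an unadjusted p under 0.05. Vsig8 was not called without CAL replicate 1, nor when CAL and Control alone were fitted, and 0 genes were called then. Both genes were chosen from this comparison, so nothing is read from their place in it. Myh15 stood at 2.34 ± 0.33, a fold of 5.08, and edgeR did not call it with all libraries. DESeq2 and voom with sample weights called it there, and so did edgeR when CAL + DLL4 inhibition replicate 3 was left out of the shared fit, with 4 genes called then. These calls repeat the choice and are no test of either gene. Without CAL replicate 3 the log2 fold changes were 1.04 ± 0.10 for Vsig8 and 2.48 ± 0.34 for Myh15. The 5 genes next by p among those higher in CAL were Atp6v0a1 (log2 fold change 0.41), Hs6st1 (0.40), Axl (0.46), Arhgap39 (0.50) and Phka2 (0.37), all smaller in size than either gene.

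CAL + DLL4 inhibition against CAL gave a log2 fold change of -0.63 ± 0.10 for Vsig8 and of -1.33 ± 0.32 for Myh15. edgeR called 0% of genes in this comparison at an adjusted p under 0.05, while 1377 genes (7.42%) had an unadjusted p under 0.05. DESeq2 called 1 gene, Vsig8. Without CAL + DLL4 inhibition replicate 3 the values were -0.69 ± 0.10 for Vsig8 and -1.59 ± 0.32 for Myh15. Without CAL replicate 3 they were -0.68 ± 0.10 and -1.46 ± 0.33. Without CAL replicate 4, the highest for Myh15, its value was -1.05 ± 0.30. The CAL libraries serve in this comparison and in the one that chose the genes, so the opposite signs are not independent of each other. For the same reason the DESeq2 call of Vsig8 is no independent test.

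CAL + DLL4 inhibition against Control gave 0.36 ± 0.10 for Vsig8 and 1.02 ± 0.32 for Myh15, folds of 1.28 and 2.02. edgeR called 0% of genes, 1284 genes (6.92%) had an unadjusted p under 0.05, and DESeq2 called 61. Without CAL + DLL4 inhibition replicate 3, the library nearest to CAL, the values were 0.30 ± 0.10 and 0.75 ± 0.31. The separation of these groups thus rests on small gaps in CPM that TPM does not keep, for either gene.

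The relation of the genes to each other within groups was not used to choose them. After each group's mean log2 CPM was subtracted, Vsig8 and Myh15 correlated at r = 0.429 over 12 libraries (exact permutation test within groups, two-sided, all arrangements, p = 0.188). The rank correlation was 0.4 (exact permutation p = 0.285). Without Control replicate 2 and CAL + DLL4 inhibition replicate 3, the farthest from the median in Vsig8, r was 0.229 (exact permutation p = 0.581, n = 10). With CAL + DLL4 inhibition replicate 3 alone left out r was 0.244, and with CAL replicate 3 left out 0.334. Within groups a relation was therefore not shown. Of the genes with a mean of at least 1 CPM, 11.2% had a within-group r to Vsig8 at least that of Myh15. In single groups of 4 libraries r was 0.953 in CAL + DLL4 inhibition, 0.0798 in CAL and 0.104 in Control, as a description. Over all 12 libraries with group differences kept, r was 0.922 and rho 0.937, values that hold the group difference by which the genes were chosen.

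**Figure D2:**
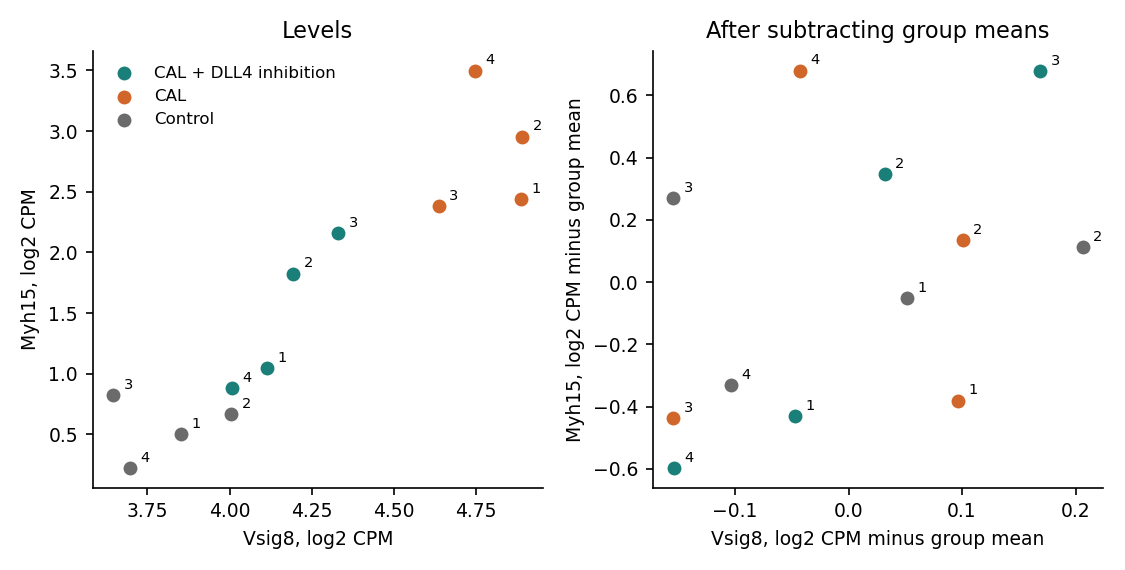
Myh15 against Vsig8 in log2 CPM, 1 point per library with its replicate number, as measured (left panel) and after subtracting each group's mean (right panel). As measured, the points run from Control at the lower left to CAL at the upper right (r = 0.922); within groups they scatter (r = 0.429).

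Genes that follow each member were ranked by Pearson r of log2 CPM over the 12 libraries among 15108 genes at a mean of at least 1 CPM. This r includes the group differences and genes were ranked by it, so it is a description with no p. An r of at least 0.8 was reached by 0.9% of genes with Vsig8 and 1.6% with Myh15. The 2 sets shared 63 genes, 46.7% of the Vsig8 set and 26.2% of the Myh15 set with the members left out. Myh15 ranked 5 by r to Vsig8, and Vsig8 ranked 8 by r to Myh15. Of the 10 genes most like each, 7 with Vsig8 and 7 with Myh15 stayed among the 10 without CAL + DLL4 inhibition replicate 3, 7 and 8 without CAL replicate 3, and 3 and 4 without the 3 libraries that held muscle RNA.

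The gene most like both was Tpcn1, an endolysosomal two-pore cation channel, at r = 0.943 with Vsig8 and 0.943 with Myh15. Its CPM was 131, 150, 144 and 128 in CAL + DLL4 inhibition, 164, 166, 147 and 164 in CAL, and 131, 128, 125 and 125 in Control. CAL and Control did not overlap, and CAL replicate 3 lay below the highest CAL + DLL4 inhibition library. With group means subtracted r was 0.682 with Vsig8 and 0.708 with Myh15. Next came Atp6v0a1, a membrane subunit of the lysosomal proton pump, at 0.934 and 0.931 (0.756 and 0.700 within groups). It had 412, 430, 489 and 406 CPM in CAL + DLL4 inhibition, 494, 521, 450 and 488 CPM in CAL, and 374, 371, 366 and 357 CPM in Control. Here CAL + DLL4 inhibition replicate 3 reached the range of CAL. The third was Mfsd12, a lysosomal cysteine importer, at 0.929 and 0.926, with 139 to 162 CPM in CAL + DLL4 inhibition, 162 to 172 CPM in CAL and 126 to 144 CPM in Control. GENCODE places another protein-coding gene of the table, 4930404N11Rik, on the opposite strand of Mfsd12, and whether counting used strand is not given. Many of the genes named below also have an annotated gene on the opposite strand, among them Phka2, Stab2, Tmcc3, Fgf10, Pxmp2, Daglb, Eci3 and Rhbdl1. On Rhbdl1 a protein-coding gene, Gm20683, also shares 2831 bases of the same strand, so its counts are uncertain.

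The other genes most like both were Arhgap25 and Arhgap39, GTPase-activating proteins; Stab2, a scavenger receptor for hyaluronan; Pex10, a peroxisome assembly protein; Phka2, a regulatory subunit of phosphorylase kinase; Tmcc3; and Fgf10, a fibroblast growth factor of adipose and epithelial development. Their sizes differed. The log2 fold change in CAL against Control was 0.33 ± 0.06 for Tpcn1, 0.35 ± 0.06 for Arhgap25 and 0.37 ± 0.06 for Phka2, against 1.44 ± 0.25 for Stab2 and 1.60 ± 0.29 for Fgf10. Stab2 had 8.27, 9.54, 18.2 and 9.61 CPM in CAL + DLL4 inhibition, 22.4, 15.2, 11.9 and 19.7 CPM in CAL, and 6.08, 6.77, 6.71 and 6.02 CPM in Control. The same library as for Atp6v0a1, CAL + DLL4 inhibition replicate 3, stood high. All 10 genes separated CAL from Control without overlap (7.35% of all genes), and 4 of the 10 separated CAL + DLL4 inhibition from CAL (3.34%). Both members separate these groups, so ranking by r with them makes such counts likely and nothing is read from them.

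**Figure D3:**
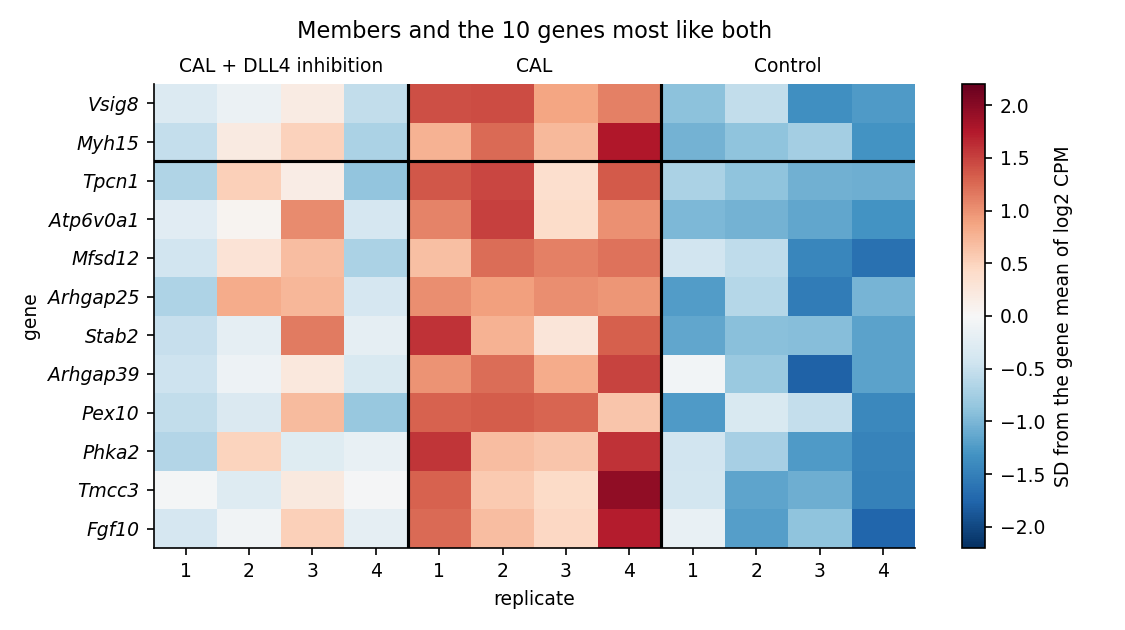
Vsig8, Myh15 and the 10 genes most like both (rows) in the 12 libraries (columns, by group), coloured by the distance of log2 CPM from the gene's mean over the libraries in SD of that gene. The CAL block is red in every row and Control is blue or near white, while CAL + DLL4 inhibition replicate 3 is the reddest of its group for most rows.

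Other genes ranked high with 1 member of the pair. Those most like Vsig8 included Sirt7, a nuclear deacylase, at r = 0.916 with Vsig8 and 0.774 with Myh15, and Slc16a10, an aromatic amino acid transporter, at 0.908 and 0.792. Within groups Sirt7 stood at 0.535 with Vsig8 and at -0.146 with Myh15, and Slc16a10 at 0.524 and 0.009. Zfp395, a zinc finger protein, and the Hmga2-ps1 pseudogene, whose reads may be shared with its parent gene, completed the 10 with Vsig8. Those most like Myh15 began with Rhbdl1, a rhomboid-like protease, at 0.953 with Myh15 and 0.831 with Vsig8, Aplp2, a relative of the amyloid precursor protein, at 0.947 and 0.861, and Pxmp2, a peroxisomal membrane channel, at 0.947 and 0.864. Within groups these stood at 0.881, 0.775 and 0.834 with Myh15, and at 0.287, 0.251 and 0.404 with Vsig8. Pxmp2 had 1.95, 2.76, 3.75 and 1.81 CPM in CAL + DLL4 inhibition, 4.99, 3.75, 3.22 and 5.90 CPM in CAL, and 1.91, 1.75, 2.28 and 1.63 CPM in Control. It shared with Myh15 the high CAL replicate 4 and the high replicates 2 and 3 under DLL4 inhibition, as ranking by r with Myh15 makes likely. Eci3, an enoyl-CoA isomerase of fatty acid oxidation, was highest in the same CAL library, at 4.64 CPM, and stood at 0.922 with Myh15. Tmem245 and Daglb, a diacylglycerol lipase, were the others.

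Genes that ran opposite to Vsig8 were led by Psrc1, a protein of the mitotic spindle, at r = -0.929. It had 3.20, 3.26, 2.29 and 3.33 CPM in CAL + DLL4 inhibition, 1.88, 2.01, 2.84 and 2.13 CPM in CAL, and 3.65, 2.92, 3.98 and 3.89 CPM in Control. Within groups it stood at -0.889. Pip5k1a, a phosphoinositide kinase, Traf7, Tnfrsf26 and Plod2, a collagen lysyl hydroxylase, followed at -0.924 to -0.916. Opposite to Myh15 were Zfp639, Cemip2 (a hyaluronan-degrading membrane protein), Clca2 and Dennd4a, at -0.930 to -0.900. All of these were lower in CAL than in Control without overlap, against 3.75% of all genes. Picking genes by a low r with members chosen as high in CAL makes this likely, so nothing is read from it. Their log2 fold changes were -0.91 to -0.23 for the 5 opposite to Vsig8 and -1.33 to -0.19 for the 4 named opposite to Myh15.

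Genes beside each member on the chromosome were described by their own values. Of the 5 nearest tested genes on each side of Vsig8, 0 of 10 were called in any comparison, whether by DESeq2, by edgeR or by weighted voom, and 0 of 10 separated any 2 groups without overlap. With 0.00539% of all genes called by edgeR in CAL against Control and 7.35% not overlapping there, 3.34% between CAL + DLL4 inhibition and CAL and 4.77% between CAL + DLL4 inhibition and Control, a count of 0 in 10 lies near the background and nothing is read from it. Without CAL replicate 3, 1 of the 10 separated CAL from Control. Groups separate more easily with fewer libraries and the share of all genes is not given for that setting, so nothing is read from it. Their r with Vsig8 had a median of 0.146 and ran from -0.466 to 0.619, the highest for Igsf9, an immunoglobulin superfamily adhesion protein. Igsf9 had 2.35 to 3.44 CPM in CAL + DLL4 inhibition, 2.50 to 6.4 CPM in CAL and 1.55 to 2.65 CPM in Control. Slamf8, a receptor of myeloid cells 17.7 kb after Vsig8, had 56.7 to 85.3 CPM in CAL + DLL4 inhibition, 66.9 to 107 CPM in CAL and 59.1 to 109.9 CPM in Control, ranges that lay across each other. For Myh15, 0 of 10 neighbours were called by these tools or separated any 2 groups, again near the background, and r had a median of -0.0963 and ran from -0.517 to 0.318, the highest for Cd47, the "do not eat me" signal of cell surfaces. The log2 fold changes in CAL against Control ran from -0.51 to 0.85 around Vsig8, the highest being 0.85 ± 0.27 for Igsf9, and from -0.55 to 0.07 around Myh15. GENCODE draws the noncoding 4933439K11Rik on the opposite strand across 2192 bases of Vsig8, where RefSeq places it 5.13 kb away. Its own level was 0.0718 to 0.287 CPM over the 12 libraries, and without stranded counting reads of the 2 cannot be told apart. No annotated gene overlapped Myh15.

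**Figure D4:**
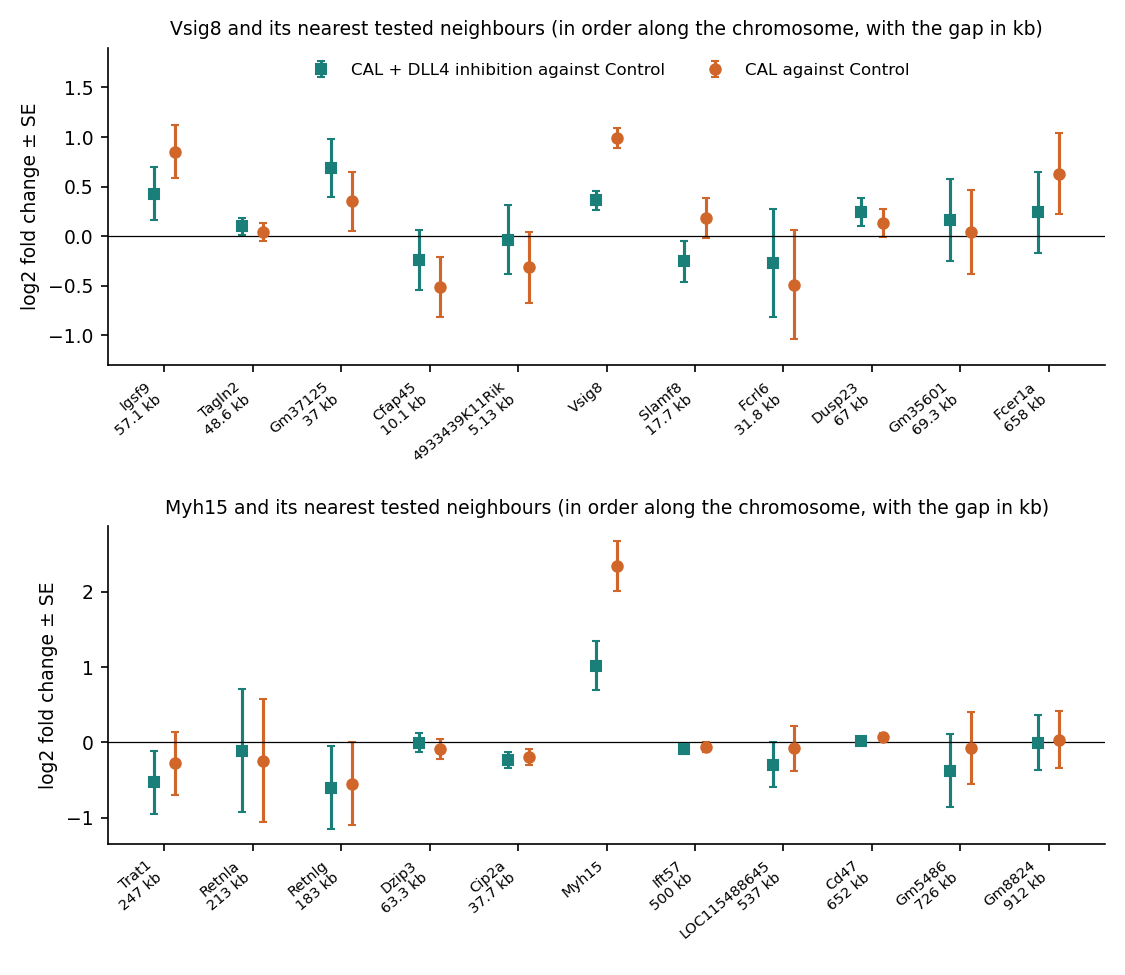
Log2 fold change ± SE against Control for Vsig8 (upper panel) and Myh15 (lower panel) and their 5 nearest tested neighbours on each side, in chromosome order with the gap in kb, for CAL + DLL4 inhibition (green squares) and CAL (orange circles). In CAL, Vsig8 (0.99) and Myh15 (2.34) lie above each of their neighbours, the nearest being Igsf9 (0.85); in CAL + DLL4 inhibition, Gm37125 (0.69) and Igsf9 (0.43) lie above Vsig8 (0.36).

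Cell type markers and gene families were set beside both genes as lists, chosen with earlier results known and described by counts only. Over all genes tested the median r was -0.0212 with Vsig8 and -0.0232 with Myh15. The adipocyte list stood highest, with a median r of 0.664 with Vsig8 and 0.794 with Myh15 over 19 genes. Within groups these were 0.126 and 0.612, with 19 of 19 genes positive for Myh15 and 15 of 19 for Vsig8. Without CAL + DLL4 inhibition replicate 3 they were 0.00986 and 0.596, and without CAL replicate 3 they were 0.0465 and 0.608. The summed adipocyte level was 2643 to 3185 CPM in CAL + DLL4 inhibition, 3247 to 4310 CPM in CAL and 1747 to 3126 CPM in Control. In CAL against Control 20 of 20 adipocyte genes had a fold change above 0, against 48.4% of all genes, with a median log2 fold change of 0.95. edgeR called 0 of the 20. With sample weights, voom called 2, all higher, where it called 69 of 18551 genes higher. DESeq2 called 5, all higher, where it called 1.83% of all genes higher. Without overlap 8 of 20 were higher, against 3.61% of all genes. Genes of a list can move together, so these are not 20 separate results. In CAL + DLL4 inhibition against CAL 0 of 20 had a fold change above 0 (51.3% of all genes, median -0.65), and in CAL + DLL4 inhibition against Control 19 of 20 (49.6% of all genes, median 0.33). Car3, a carbonic anhydrase abundant in adipocytes, had 216 to 356 CPM in CAL + DLL4 inhibition, 329.5 to 463 CPM in CAL and 123 to 310.4 CPM in Control. Plin4, a fat droplet protein, had 310.4 to 495 CPM in CAL + DLL4 inhibition, 528 to 869.8 CPM in CAL and 144 to 471 CPM in Control. The part of adipocyte content in the levels of the 2 genes was not tested.

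Muscle RNA also moved with Vsig8. Acta1, skeletal muscle actin, had 127 CPM in CAL + DLL4 inhibition replicate 3, 28.1 and 74.5 CPM in CAL replicates 1 and 2, and at most 2.91 CPM in the other 9 libraries. These 3 libraries held the highest Vsig8 of their groups. All 11 tested skeletal muscle genes had a within-group r with Vsig8 above 0, from 0.633 to 0.773 with a median of 0.715, and with Myh15 the median was 0.254. Without CAL + DLL4 inhibition replicate 3 the medians were 0.618 with Vsig8 and -0.172 with Myh15, so the sign for Myh15 rests on that library. Without CAL replicate 3 they were 0.658 and 0.135. With all 3 muscle libraries left out they were 0.551 with Vsig8 (11 of 11 positive) and -0.0782 with Myh15 (4 of 11). The summed muscle level was 162 to 7045 CPM in CAL + DLL4 inhibition (162 to 280.5 without replicate 3), 162 to 4514 CPM in CAL (162 to 165 without replicates 1 and 2) and 82.7 to 251 CPM in Control. In CAL against Control 11 of 11 muscle genes had a fold change above 0 (48.4% of all genes), with a median log2 fold change of 3.88. edgeR called 0 of the 11, and DESeq2 called 3 higher, where it called 1.83% of all genes higher. In CAL + DLL4 inhibition against Control 11 of 11 were above 0 (49.6% of all genes, median 3.86). These counts and medians include the 3 libraries high in Acta1, which held most of the muscle RNA, and are not given without them. Without the 3 libraries high in Acta1 the log2 fold change in CAL against Control was 0.89 ± 0.11 for Vsig8 and 2.50 ± 0.35 for Myh15. With 2 CAL libraries left, 0 genes were called in that comparison, Vsig8 included, so nothing is read from the lost call. For CAL + DLL4 inhibition against CAL the log2 fold changes without these 3 libraries were -0.59 ± 0.12 for Vsig8 and -1.75 ± 0.37 for Myh15. The library with the most Myh15, CAL replicate 4, had 1.58 CPM of Acta1. Of the other myosin heavy chains 5 of 13 listed were tested, which does not show the rest to be unexpressed. Myh3, the embryonic chain, stood at 0.860 with Vsig8 and 0.232 with Myh15 within groups. Myh10 and Myh9, nonmuscle chains, were the highest and lowest of the 5 tested with Myh15 within groups, at 0.371 and -0.542. The median r of these 5 with Myh15 within groups was -0.0228. It was -0.244 without CAL + DLL4 inhibition replicate 3 and -0.124 without CAL replicate 3.

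Hair and skin genes were examined because Vsig8 is best known there. The deposited table lists only genes with a count above 0 in all 12 libraries, so a gene missing from it is not shown to be unexpressed. The muscle genes Ckm and Tnnc2 were missing too, though Acta1 reached 127 CPM. Of 23 hair follicle genes 4 were in the table, and among the 7 defining ones only Tchh (trichohyalin) was, at 6.51 to 9.97 CPM in CAL + DLL4 inhibition, 3.42 to 9.22 CPM in CAL and 6.14 to 9.78 CPM in Control. Its r with Vsig8 was -0.506, and -0.0444 within groups. Gata3, a transcription factor of the same list that other tissues also use, stood at 0.127 and 0.187. Epidermal keratinocyte genes, present unevenly with Krt5 (a basal keratin) from 0.0845 to 157 CPM over the 12 libraries, had a within-group r below 0 for all 6 genes, with a median of -0.328 with Vsig8 and -0.597 with Myh15. Without CAL + DLL4 inhibition replicate 3 these were -0.130 and -0.446. Their summed level was 12.5 to 408 CPM in CAL + DLL4 inhibition (143 to 408 without replicate 3), 8.99 to 66.4 CPM in CAL (8.99 to 13.1 without replicate 3) and 10.3 to 221 CPM in Control. For 9 neutrophil genes the within-group median r was -0.315 with Vsig8 and -0.578 with Myh15 (-0.165 and -0.504 without CAL replicate 3). Their summed level was 256 to 425 CPM in CAL + DLL4 inhibition, 128 to 283 CPM in CAL and 256 to 655 CPM in Control. The part of these cells in the levels of Myh15 was not tested. Immune checkpoint receptors and ligands with immunoglobulin domains had a median r of -0.00634 with Vsig8 over 24 genes, with group differences kept (0.0968 within groups). With group differences kept, the highest was 0.341 for Vsig10 and the lowest -0.773 for Cd276, an inhibitory B7 family member. Havcr2, the receptor TIM-3, stood at -0.760 with Vsig8 and -0.815 with Myh15, with 21.4 to 32.4 CPM in CAL + DLL4 inhibition, 19.7 to 26.9 CPM in CAL and 25.1 to 32.9 CPM in Control. The lysosomal proton pump list, to which Atp6v0a1 belongs, had a median r of -0.297 with Vsig8 and -0.164 with Myh15 over 16 genes. Within groups its medians were -0.366 and 0.0850, a change of sign for Myh15 (11 of 16 positive). Lipid-associated macrophage genes had -0.171 and -0.0699 over 20, and -0.362 and -0.0286 within groups. Without CAL + DLL4 inhibition replicate 3 the within-group medians with Myh15 were 0.312 for the pump list and 0.105 for the macrophage genes. Without CAL replicate 3 they were 0.183 and 0.0373. With Vsig8 both lists stayed negative in each case. Atp6v0a1 had the highest r of its list with either gene. Notch pathway genes had a median of -0.307 with Vsig8 and -0.458 with Myh15 over 18 genes, and within groups of -0.0301 and -0.456 (0.0610 and -0.316 without CAL + DLL4 inhibition replicate 3, a change of sign for Vsig8).

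**Figure D5:**
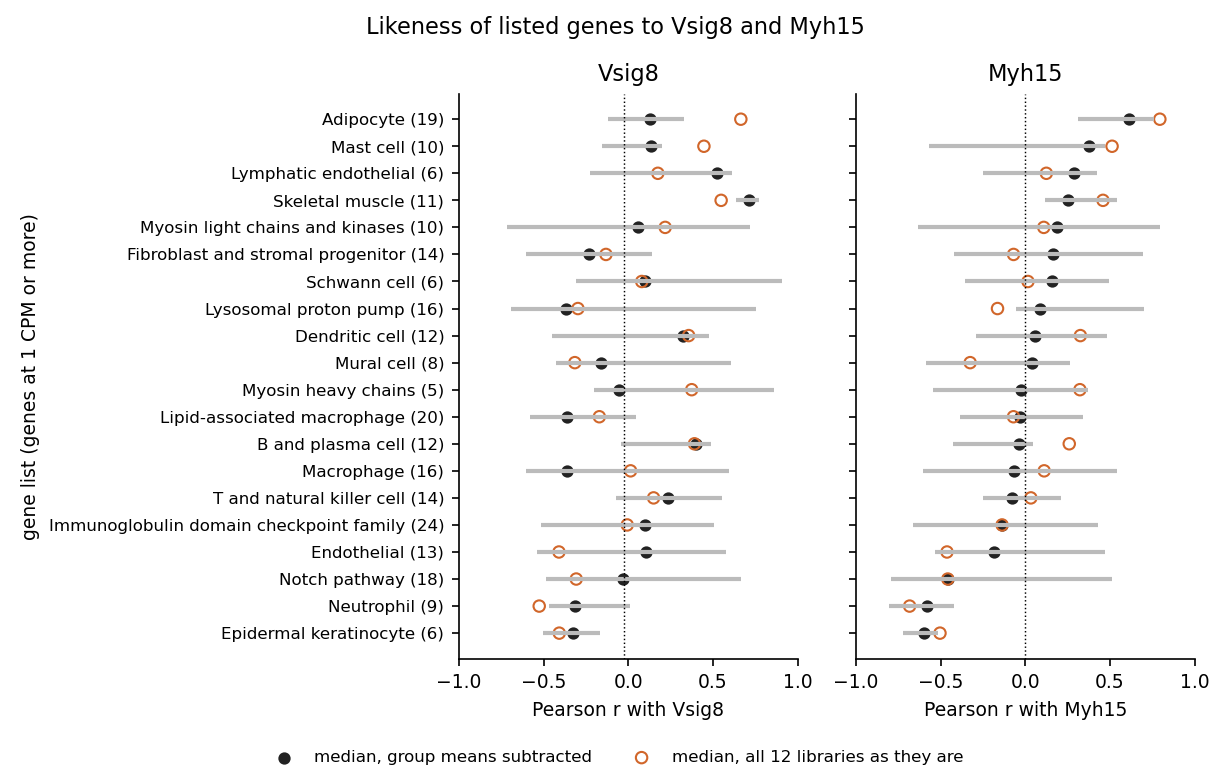
Pearson r of listed genes with Vsig8 (left panel) and Myh15 (right panel) over 12 libraries, for lists with at least 5 genes at a mean of 1 CPM. Black points are list medians with group means subtracted, grey lines their range, orange circles the medians with group differences kept, and the dotted line the within-group median of all genes; adipocyte genes lie highest for Myh15 (0.612) and skeletal muscle genes for Vsig8 (0.715).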

How the data were processed

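Total RNA from 12 fat grafts was extracted with Trizol and made into exon-capture libraries with a SureSelectXT RNA Direct kit, per the labels' protocols. Reads were processed with HISAT2 and StringTie on mm10, per the submitters' processing notes, with no versions named. The deposited table gives estimated counts, whole numbers per the file headers and values, with 0 columns that could not be mapped to a sample. Every gene listed has a count above 0, and 1219 values equal 1. The FPKM and TPM deposited by the authors are scaled for transcript length. TPM was used to compare levels between genes and as an alternative, and FPKM was only read beside it.

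Counts were scaled by TMM and fitted with edgeR 4.0.16 in R 4.3.3 (quasi-likelihood, robust, all 12 libraries, 1 coefficient per group) after filterByExpr at a minimum count of 10, with a threshold of 0.05 on Benjamini-Hochberg adjusted p-values. Log2 CPM used a prior count of 2. The code was tested on simulated data with known changes. Depth of 55883051 to 70804141 counts puts the members at 81 or more counts per library. Alternatives were other scalings and filters, DESeq2 1.42.0, voom with sample weights in limma 3.58.1, Spearman's rho, TPM, the replicate block, only 2 groups, 3 libraries with Acta1 over 10 CPM left out, and each library left out.

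Named genes were the 10 highest and 5 lowest r per member, the 10 highest for both, the 5 nearest tested neighbours on each side, list genes by r, and the 5 next by p. A result for 1 of these genes is not reported here. The members and lists (21 lists, 311 genes) were chosen with earlier results of these data known. Figures were drawn with matplotlib 3.10.9.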

Additional observations from a re-analysis of the deposited data

Results flagged for a closer look

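Among 162 gene and group combinations (54 genes), 9 had a library far from the other 3 of its group. Chance alone gives such a gap about 1 in 20 times, and 9 of 162 lies near that share. Neither Vsig8 nor Myh15 was among them. In CAL, Tpcn1 was low in replicate 3 at 147 CPM (next 164) and Pex10 low in replicate 4 at 4.27 CPM (next 4.62). Eci3 was high in CAL replicate 4 at 4.64 CPM (next 2.67), the library that also had the most Myh15. Clca2, opposite to Myh15, was high in CAL replicate 3 at 3.01 CPM (next 1.45), the library with the least Myh15 in CAL. In CAL + DLL4 inhibition replicate 3, Psrc1 was low at 2.29 CPM (next 3.20) and Stab2 high at 18.2 CPM (next 9.61). Of the Myh15 neighbours, Dzip3 was high in Control replicate 3 at 46.4 CPM (next 42.7). Retnla, a secreted resistin-like protein of alternatively activated macrophages, was high in CAL + DLL4 inhibition replicate 3 at 28.8 CPM (next 9.57) and in CAL replicate 4 at 31.1 CPM (next 7.29).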

How the results depend on the processing

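The log2 fold changes of both genes kept their sign and moved by less than the spread between libraries in all 22 alternatives run for each. For Vsig8 they ran from 0.89 to 1.06 in CAL against Control, -0.69 to -0.58 in CAL + DLL4 inhibition against CAL and 0.23 to 0.43 in CAL + DLL4 inhibition against Control, and for Myh15 from 2.07 to 2.50, -1.75 to -1.05 and 0.75 to 1.19. The within-group r ran from 0.244 to 0.587 over 18 alternatives (lowest p 0.0735 by exact permutation). Counts of called genes moved far more. In CAL against Control, DESeq2 called 616, voom with sample weights 88, a fit of only the 2 groups 0 and one without the 3 libraries with muscle RNA 0. Leaving out 1 library gave 0 to 6, with 0 without CAL replicate 1, 2 without CAL replicate 2 or Control replicate 4, 3 without CAL replicate 3, 4 without CAL + DLL4 inhibition replicate 3 and 6 without Control replicate 1. DESeq2 called 1 gene in CAL + DLL4 inhibition against CAL and 61 in CAL + DLL4 inhibition against Control. The cause was not tested. Calls of listed genes and neighbours by other tools, and these values without 1 library, were added after seeing the data. Of the 10 genes most like Vsig8, 3 stayed among the 10 by Spearman's rho, 3 without the muscle libraries and 5 to 8 with 1 library left out. Of those most like Myh15, 3 stayed by rho, 6 in TPM, 4 without the muscle libraries and 6 to 9 with 1 library left out. Which genes are named therefore depends on these choices. Replicate numbers did not pair the libraries: same-numbered libraries correlated at -0.439 to 0.194 over 12 pairs, and 0 libraries correlated best with their own number. This is a different measure from the r of log2 CPM levels given above, which was 0.97 to 0.989 between groups. With a replicate block edgeR called 1 gene in CAL against Control, the log2 fold changes there were 0.99 for Vsig8 and 2.35 for Myh15, and the within-group r was 0.551.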
